A study of Mus musculus with 21 samples.

Results

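The smooth muscle contractile genes that myoepithelial cells use were measured in 21 mouse mammary tumours. The set held 10 genes, chosen by symbol from the filaments, motor, regulators and transcriptional co-activator of smooth muscle: Acta2, Actg2, Myh11, Myl9, Mylk, Cnn1, Tagln, Lmod1, Smtn and Myocd. All 10 were present among the 24028 genes of the deposited table, and all 10 passed the filter on low counts that left 15792 genes for testing.

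The tumours came from WAP-Cre/PIK3CA-H1047R mice, in which Cre recombinase driven by the promoter of the milk protein WAP acts in mammary epithelium and the tumours carry an oncogenic PI3K-alpha. All 3 groups shared this genotype. Of the 21 tumours, 7 had been treated with BYL719 (alpelisib, a PI3K-alpha inhibitor) and were labelled relapse, 7 had been treated with BYL719 and were labelled non-relapse (stable below), and 7 had received the vehicle DMSO. The series' design text calls the treated groups responding and stable, and the labels give neither the animals' age nor the time of collection. Tumours are named by group and replicate number. Titles carry a code and a digit with a letter, whose meaning the labels do not give. Relapse tumours held 7 codes, stable tumours 4 and vehicle tumours 3, and 2 codes occurred in both BYL719 groups. Tumours with a shared code may share an animal, so p-values measure the spread between these tumours only.

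Myoepithelial cells form the contractile basal layer of the mammary ducts and alveoli and eject milk when oxytocin reaches them. They are epithelial cells that carry basal keratins, yet they build the actin and myosin apparatus of smooth muscle. In smooth muscle, calcium and calmodulin activate myosin light chain kinase, the kinase phosphorylates the regulatory light chain, and myosin then pulls on actin. Many genes of this apparatus are switched on by serum response factor, which binds a DNA element called the CArG box, together with myocardin or its relatives.

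Most of the members are known targets of serum response factor, and most moved together. The members' promoters were therefore searched for the CArG box on both strands, over the 250 bases before each transcript start given by RefSeq. Windows from RefSeq on GRCm38.p6 were found for 6 members, Acta2, Myl9, Mylk, Cnn1, Lmod1 and Smtn, and not for Myh11, Tagln, Actg2 and Myocd. The starts used for Lmod1 and Smtn are the ends of the gene spans printed with each gene, and those used for Acta2, Myl9, Cnn1 and Mylk lie inside the spans, so that other starts of these genes were not searched. A CArG box is 10 bases long, with 2 C, 6 bases that are A or T, and 2 G; a CArG-like box here has 5 of the 6 core bases A or T. The stretches of Acta2 and Myl9 that hold the matches are shown 5′ to 3′ on the gene's strand, with the 10 bases of the box in capitals and 10 bases on each side.
Acta2 box 1: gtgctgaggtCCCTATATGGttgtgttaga
Acta2 box 2: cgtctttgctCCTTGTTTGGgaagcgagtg
Myl9 box 1: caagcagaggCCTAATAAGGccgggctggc
Myl9 box 2: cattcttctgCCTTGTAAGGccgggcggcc
The Acta2 stretches lie at chr19:34255438-34255467 and chr19:34255388-34255417 on the minus strand, and their boxes begin 84 and 34 bases before the transcript start used. The Myl9 stretches lie at chr2:156775293-156775322 and chr2:156775355-156775384 on the plus strand, with boxes 161 and 99 bases before the transcript start used. Box 1 of Myl9 was the only full CArG box in these 6 windows, and the other 3 were CArG-like. The full box occurred in 1 of 6 members' windows against 1.47% of 32851 windows, and the full or CArG-like box in 2 of 6 against 8.59%. Counted by gene, 1.62% of 27025 genes with a window held the full box and 9.78% the full or CArG-like box. In the gene lists described below, also counted by gene, the full box occurred in 5 of 30 filament and adhesion partners. It also occurred in 2 of 10 skeletal and 2 of 7 cardiac muscle markers. Apart from 1 of 15 SRF and myocardin family regulators, the other lists held none. The full or CArG-like box occurred in 8, 4 and 3 of these partners, skeletal and cardiac markers. It was also found in 2 of 8 endothelial markers, 3 of 15 regulators and 3 of 23 light chain and calcium handling genes. Basal, fibroblast and luminal markers held it in 1 of 11, 1 of 8 and 1 of 10 genes. Contraction receptors held it in 0 of 12 and pericyte markers in 0 of 9. These boxes were thus not particular to the members. The letters were not found in the single window searched for each of Mylk, Cnn1, Lmod1 and Smtn. A match describes the sequence and does not show a bound site.

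Total counts ranged from 13337848 in stable 3 to 24873844 in vehicle 2. Levels are given in CPM, each tumour's counts relative to its TMM-scaled total. A gene was called changed at an adjusted p under 0.05 in the quasi-likelihood test of edgeR, adjusted over the 15792 genes after Benjamini and Hochberg. Basal keratin transcripts were present in all 21 tumours (Krt5 at 9.56 to 825 CPM, Krt14 at 85.0 to 2507 CPM). In bulk tumour RNA, fewer cells of a type and less RNA per cell cannot be told apart.

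Contractile transcripts were abundant in vehicle 2, 6 and 7, and low in the other 4 vehicle tumours and in all 14 BYL719-treated tumours. The members' summed level ranged from 266 to 816 CPM in relapse tumours (median 400 CPM), from 195 to 627 CPM in stable tumours (median 299 CPM) and from 199 to 23800 CPM in vehicle tumours (median 583 CPM). Vehicle 2, 6 and 7 reached 17880, 23800 and 10032 CPM, while the next highest tumour of all was relapse 4. Vehicle 6 and 7 shared their title code with vehicle 5, which stood at 423 CPM, and vehicle 2 shared its code with vehicle 1, at 268 CPM. The digit in the title was 5 for vehicle 2 and 6, 4 for vehicle 7, and 3 or 4 for the other vehicle tumours. The treated tumours with the digit 5, relapse 2, stable 2 and stable 3, held 544, 292 and 308 CPM. Because 3 tumours carry most of the members' transcripts, results are given with and without them.

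**Figure D1:**
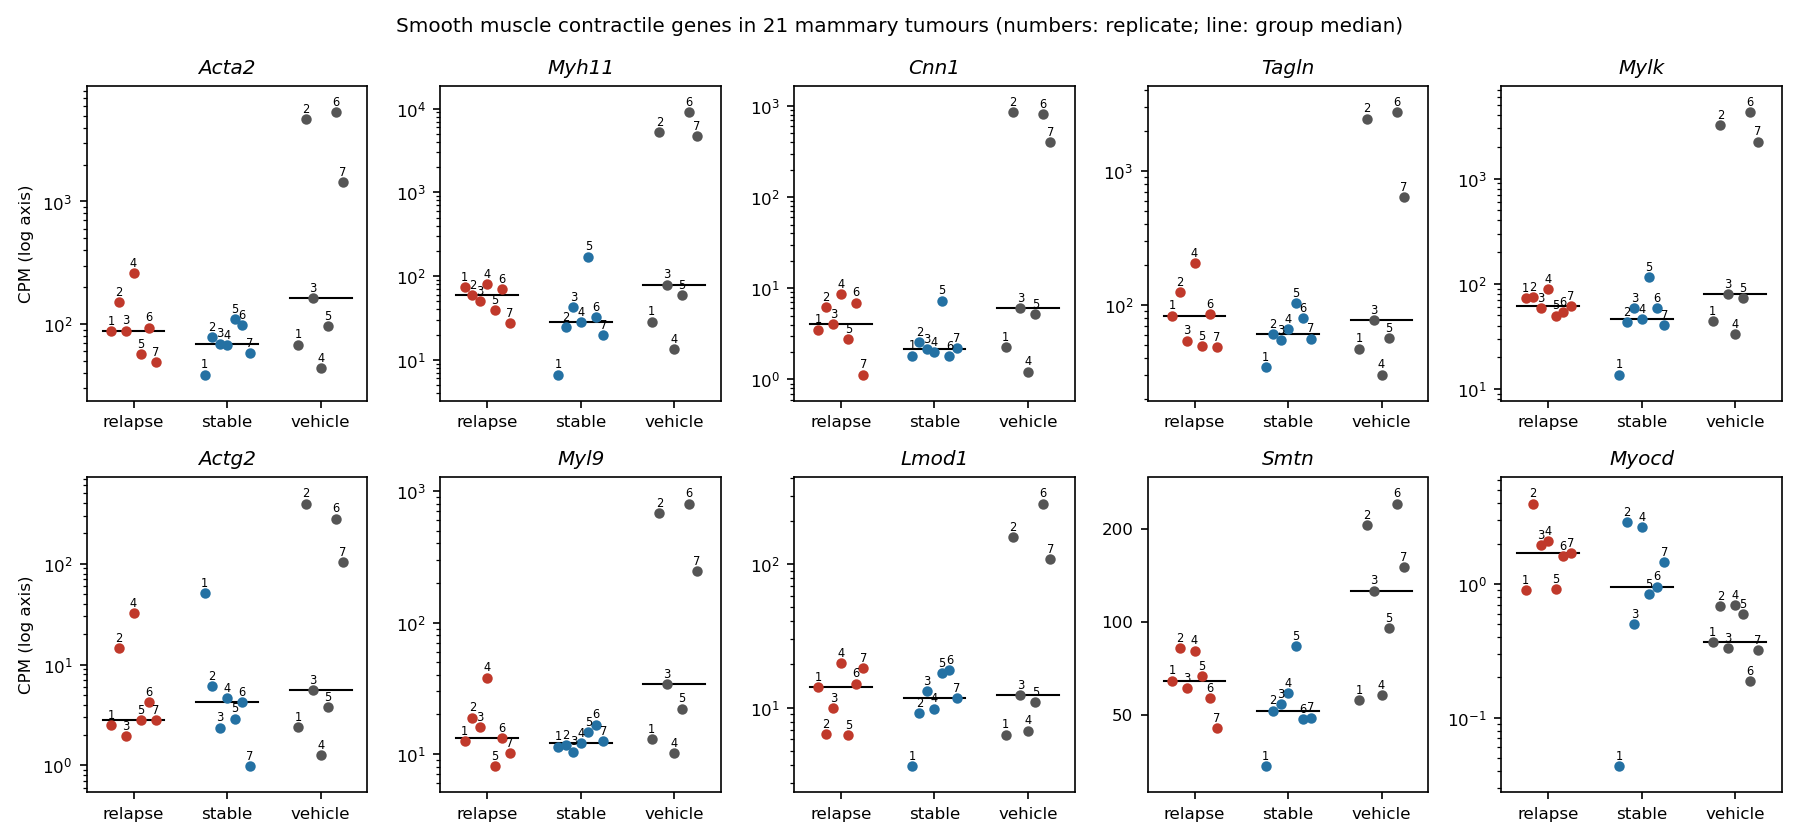
CPM (log axis) of the 10 contractile genes in each of 7 relapse, 7 stable and 7 vehicle tumours. Points are tumours with their replicate numbers, and lines are group medians. Vehicle 2, 6 and 7 lie above all others for 9 genes, and for Myocd the relapse tumours lie above all vehicle tumours.

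Acta2 (Entrez gene 11475, chr19:34240336-34255585, GRCm38) encodes smooth muscle alpha-actin, the main actin of the contractile thin filament. It had 49.3 to 260 CPM in relapse tumours (median 88.9), 38.8 to 110 CPM in stable tumours (median 69.7) and 44.1 to 5331 CPM in vehicle tumours (median 163). Vehicle 2, 6 and 7 held 4686, 5331 and 1438 CPM, and the other vehicle tumours, at 44.1 to 163 CPM, overlapped the relapse and the stable tumours. Acta2 fell in relapse against vehicle by 3.90 on the log2 scale (SE 0.92, edgeR adjusted p = 0.0106) and in stable against vehicle by 4.50 (SE 0.94, edgeR adjusted p = 0.00492). Group means were 113 ± 73.1 CPM in relapse, 74.5 ± 23.97 CPM in stable and 1690 ± 2328 CPM in vehicle tumours (SD, n = 7 each), so that the vehicle SD exceeded its mean.

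Actg2 (Entrez gene 11468, chr6:83512909-83536251) encodes smooth muscle gamma-actin, which is typical of visceral smooth muscle. Its levels were 1.96 to 32.3 CPM in relapse tumours (median 2.82), 0.982 to 50.8 CPM in stable tumours (median 4.22) and 1.26 to 394 CPM in vehicle tumours (median 5.58). Stable 1 and relapse 4 were the highest treated tumours, and vehicle 2, 6 and 7 held 394, 280 and 104 CPM. The gene did not pass the test in relapse against vehicle (-3.69, SE 1.25, edgeR adjusted p = 0.0601) or stable against vehicle (-3.45, SE 1.24, edgeR adjusted p = 0.0632). Without stable 1, edgeR called Actg2 lower in both comparisons (adjusted p = 0.0329 for relapse and 0.0137, at -4.99, for stable), and without relapse 4 in relapse (adjusted p = 0.0407).

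Among the motor genes, Myh11 (Entrez gene 17880, chr16:14194527-14292188) encodes the smooth muscle myosin heavy chain. It had 27.4 to 80.1 CPM in relapse tumours (median 59.2), 6.65 to 170 CPM in stable tumours (median 28.4) and 13.45 to 9056 CPM in vehicle tumours (median 78.8). Vehicle 2, 6 and 7 held 5224, 9056 and 4707 CPM, so that vehicle 7 was close to vehicle 2 for Myh11 but not for Acta2. Stable 5, at 170 CPM, was the highest of the remaining 18 tumours. Myh11 fell by 5.58 in relapse (SE 1.25, edgeR adjusted p = 0.0088) and by 5.88 in stable tumours (SE 1.27, edgeR adjusted p = 0.00598) against vehicle tumours.

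Myl9 (Entrez gene 98932, chr2:156775408-156781657), whose promoter stretches are shown above, encodes the regulatory myosin light chain. It had 8.08 to 38.0 CPM in relapse tumours (median 13.1), 10.4 to 16.7 CPM in stable tumours (median 12.03) and 10.1 to 801 CPM in vehicle tumours (median 33.9). Vehicle 3 and 5, at 33.9 and 22.1 CPM, lay above all stable tumours, and within the relapse group relapse 4 alone exceeded them. The gene fell by 3.95 in relapse (SE 0.84, edgeR adjusted p = 0.00709) and by 4.34 in stable tumours (SE 0.86, edgeR adjusted p = 0.00345), and 6 of 7 relapse and 7 of 7 stable tumours lay below the vehicle median.

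Mylk (Entrez gene 107589, chr16:34745199-35002436) encodes myosin light chain kinase, which phosphorylates the light chain made from Myl9. Its levels were 49.6 to 88.2 CPM in relapse tumours (median 60.7), 13.6 to 116 CPM in stable tumours (median 45.8) and 33.3 to 4268 CPM in vehicle tumours (median 79.3). Stable 1 was lowest and stable 5 highest of the treated tumours, and vehicle 2, 6 and 7 held 3211, 4268 and 2243 CPM. Mylk fell by 4.44 in relapse (SE 0.96, edgeR adjusted p = 0.00733) and by 4.72 in stable tumours (SE 0.97, edgeR adjusted p = 0.00445).

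Of the thin filament regulators, Cnn1 (Entrez gene 12797, chr9:22099221-22109221) encodes calponin, an actin-binding inhibitor of the myosin motor. It had 1.13 to 8.68 CPM in relapse tumours (median 4.01), 1.81 to 7.32 CPM in stable tumours (median 2.16) and 1.22 to 852 CPM in vehicle tumours (median 6.10). Vehicle 2, 6 and 7 held 852, 808 and 400 CPM, which was 242, 229 and 114 times the median of all 21 tumours, the widest contrast of the 10 genes. Cnn1 fell by 5.96 in relapse (SE 1.26, edgeR adjusted p = 0.00687) and by 6.71 in stable tumours (SE 1.31, edgeR adjusted p = 0.00314). Below the vehicle median lay 4 of 7 relapse and 6 of 7 stable tumours.

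Tagln (Entrez gene 21345, chr9:45929628-45936058) encodes transgelin, also called SM22-alpha, an actin-binding protein used as an early smooth muscle marker. It had 48.5 to 205 CPM in relapse tumours (median 83.5), 34.2 to 104 CPM in stable tumours (median 60.9) and 30.3 to 2751 CPM in vehicle tumours (median 77.1). The relapse median exceeded the vehicle median, with 3 of 7 relapse tumours under it, while vehicle 2, 6 and 7 held 2469, 2751 and 636 CPM. The gene fell by 3.22 in relapse (SE 0.86, edgeR adjusted p = 0.0211) and by 3.73 in stable tumours (SE 0.88, edgeR adjusted p = 0.0100). Without vehicle 2 or vehicle 6 alone, Tagln lost its call in relapse against vehicle (edgeR adjusted p = 0.0520 and 0.0566). It overlaps Pcsk7 in the annotation, and whether the counting used strand is not known from the labels. The same limit holds for Mylk, which overlaps the noncoding genes 1700119H24Rik and E130310I04Rik of the deposited table. Actg2, Smtn and Myocd overlap noncoding genes that are absent from that table.

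Lmod1 (Entrez gene 93689, chr1:135324813-135368065) encodes leiomodin, which nucleates actin filaments in smooth muscle. Its range was 6.43 to 20.4 CPM in relapse tumours (median 13.96), 3.91 to 18.3 CPM in stable tumours (median 11.7) and 6.49 to 263 CPM in vehicle tumours (median 12.2). The medians of the 3 groups lay close together, and vehicle 2, 6 and 7 held 155, 263 and 108 CPM. Lmod1 fell by 2.63 in relapse (SE 0.73, edgeR adjusted p = 0.0240) and by 2.76 in stable tumours (SE 0.73, edgeR adjusted p = 0.0180). Its relapse call was lost without vehicle 2 (edgeR adjusted p = 0.0509) or vehicle 6 (0.0749), and its stable call without vehicle 6 (0.0536).

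Smtn (Entrez gene 29856, chr11:3517522-3539292) encodes smoothelin, an actin-associated protein of contractile smooth muscle cells. It had 45.3 to 82.5 CPM in relapse tumours (median 64.7), 34.1 to 83.5 CPM in stable tumours (median 51.7) and 55.9 to 242 CPM in vehicle tumours (median 127). The spread was the narrowest of the 10 genes: vehicle 2, 6 and 7 held 206, 242 and 151 CPM, vehicle 3 and 5 followed at 127 and 95.7 CPM, and all 5 lay above every treated tumour. Smtn fell by 1.03 in relapse (SE 0.28, edgeR adjusted p = 0.0225) and by 1.301 in stable tumours (SE 0.28, edgeR adjusted p = 0.00599). The relapse call was lost without vehicle 2 or vehicle 6 (edgeR adjusted p = 0.0507 and 0.0548).

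Myocd (Entrez gene 214384, chr11:65173608-65269989) encodes myocardin, the co-activator that serum response factor uses at smooth muscle genes, and in the comparisons with vehicle over all 21 tumours its estimate had the opposite sign to those of the 9 structural and motor genes. It had 0.893, 3.97, 1.96, 2.10, 0.919, 1.61 and 1.69 CPM in relapse 1 to 7, and 0.0434, 2.904, 0.503, 2.64, 0.838, 0.955 and 1.45 CPM in stable 1 to 7. In vehicle 1 to 7 it had 0.366, 0.686, 0.331, 0.697, 0.596, 0.187 and 0.320 CPM. Vehicle 6, where 7 other members peaked, held the lowest vehicle level of Myocd, from 4 counts. The relapse and vehicle groups did not overlap, while stable 1 and stable 3 lay within or below the vehicle range. Myocd rose in relapse against vehicle by 2.03 (SE 0.55, edgeR adjusted p = 0.0231, 7 of 7 relapse tumours above the vehicle median). It did not pass the test in stable against vehicle (1.54, SE 0.55, edgeR adjusted p = 0.0636), except without stable 1 (1.75, edgeR adjusted p = 0.0112). The relapse call was lost without relapse 2 (edgeR adjusted p = 0.0533) and with counts summed per title code (0.0507). The gene rested on 1 to 89 counts a tumour, so its values carry wide counting error.

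In all, 1 member rose and 8 fell in relapse against vehicle, where 5.42% of all genes tested were called higher and 5.8% lower. In stable against vehicle 0 members rose and 8 fell, where 6.9% of all genes were called higher and 8.16% lower. The members' median log2 fold change was -3.80 in relapse and -4.03 in stable tumours, and that of all genes -0.02 and -0.005. The comparisons share the 7 vehicle tumours. With limma voom, 0 members were called in relapse and 1 in stable tumours, both with sample quality weights and with title code fitted as random.

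Without vehicle 2, 6 and 7, a fit chosen after seeing the data that kept 4 vehicle tumours and tested 16081 genes, edgeR called 0 of 10 members in either comparison with vehicle. There, 1.95% of all genes were called higher and 1.32% lower in relapse, and 2.83% higher and 2.44% lower in stable tumours. The members' medians were 0.36 and -0.01. At an unadjusted p under 0.05, 2 members differed in relapse (Tagln at 0.82, Myocd at 1.90) and 1 in stable tumours (Smtn at -0.62). Of the 9 structural and motor genes, 7 were then at a positive value in relapse against vehicle, from 0.20 for Mylk to 1.43 for Actg2 (edgeR adjusted p = 0.8095 and 0.4612). Myl9 and Smtn were at -0.24 and -0.35 (edgeR adjusted p = 0.752 and 0.4117). In stable against vehicle, Acta2, Cnn1, Mylk, Myl9 and Smtn were at -0.31, -0.37, -0.08, -0.62 and -0.62, and Myh11, Tagln, Lmod1 and Actg2 at 0.06, 0.32, 0.39 and 1.71. Myocd kept its direction, at 1.90 in relapse and 1.41 in stable tumours (edgeR adjusted p = 0.1208 and 0.224).

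**Figure D2:**
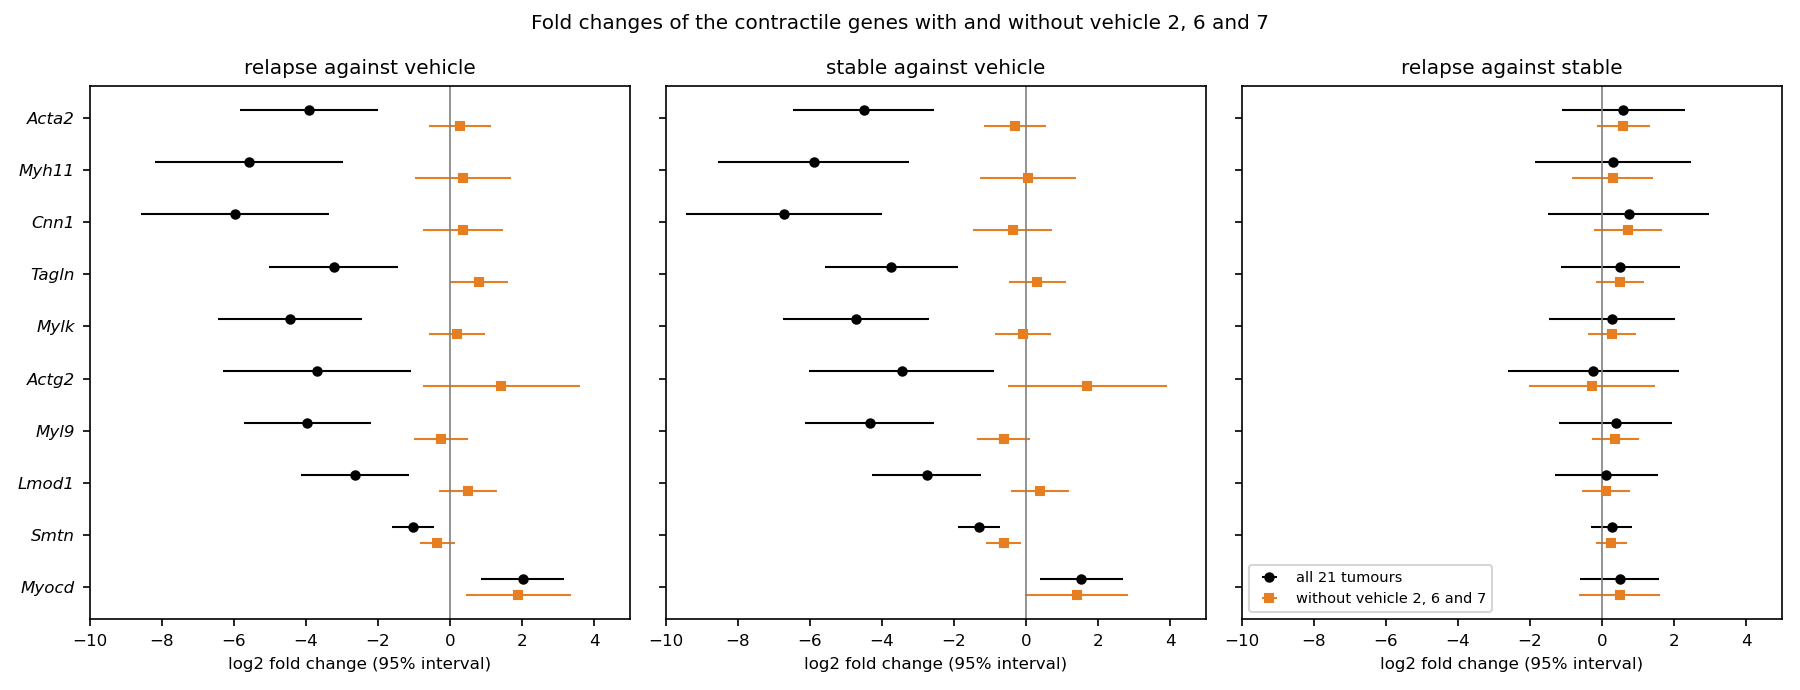
Log2 fold changes with 95% intervals of the 10 members in the 3 comparisons, fitted on all 21 tumours (black circles) and without vehicle 2, 6 and 7 (orange squares). In the fit of 21 tumours the intervals of 9 genes lie below 0 in both comparisons with vehicle, and all of them but Actg2 are called; no gene is called in the other fit.

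Relapse and stable tumours, which ask whether tumours that relapsed under the drug differ from those that did not, showed no called difference in the contractile genes. EdgeR called 0 of 10 members (0 at an unadjusted p under 0.05), where 0% of all genes were called in either direction, with or without vehicle 2, 6 and 7; the DESeq2 Wald test called 6 genes, none of them members. The estimate for Acta2 was 0.60 (95% interval -1.11 to 2.31, edgeR adjusted p = 0.9986), for Myh11 0.31 (-1.85 to 2.46) and for Cnn1 0.74 (-1.50 to 2.99). For Smtn, the most precisely measured member, the interval ran from -0.31 to 0.85, and for Actg2 from -2.61 to 2.13. Leaving out vehicle 2, 6 and 7, the spread shared by all groups was smaller, and the interval of Acta2 ran from -0.15 to 1.33 and that of Smtn from -0.16 to 0.69. These intervals include 0 and also include differences of more than 1 log2 unit for 9 of 10 members in the fit of 21 tumours.

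Expressed per kilobase of the gene lengths in the deposited table, so that genes could be ranked against each other, Acta2 was the 11th, 6th and 40th most abundant of 15792 genes in vehicle 2, 6 and 7. Tagln ranked 13th, 10th and 58th and Myh11 32nd, 19th and 33rd. In the remaining 18 tumours Acta2 ranked between 339 and 4765 and Tagln between 229 and 3618 in CPM per kilobase. Myocd ranked between 14138 and 15595 in those tumours and between 15071 and 15448 in vehicle 2, 6 and 7. Lmod1 and Smtn ranked lower, at 1626 and 1113 in vehicle 2 and at 699 and 835 in vehicle 6. Acta2, Tagln and Myh11 thus stood among the most abundant transcripts in vehicle 2 and 6, and Myocd near the bottom throughout.

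Ratios in CPM per kilobase of a member to a nonmuscle isoform were high in vehicle 2, 6 and 7. Their numerators are members that were high there, so they are no separate observation. Myh11 over Myh9, the smooth muscle over a nonmuscle myosin heavy chain, was 2.33, 4.93 and 1.78 in vehicle 2, 6 and 7 and at most 0.125 (stable 5) in the other 18 tumours. Acta2 over Actb, the smooth muscle over the cytoplasmic beta-actin, was 1.33, 1.59 and 0.471 in vehicle 2, 6 and 7 and at most 0.0711 (relapse 4) elsewhere. Transcripts of Myh11 thus exceeded those of Myh9 per kilobase in these 3 tumours and in none of the other 18. Cnn1 over Tagln, both members and not isoforms of each other, was 0.264, 0.225 and 0.481 in vehicle 2, 6 and 7. It was at most 0.0704 (vehicle 5) elsewhere.

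The ratio of Actg2 to Acta2 singled out another tumour. In CPM per kilobase it was 2.37 in stable 1 and between 0.0306 and 0.225 in the other 20 tumours, vehicle 2, 6 and 7 included. Stable 1 had 50.8 CPM of Actg2, 38.8 CPM of Acta2 and 6.65 CPM of Myh11, the last being its lowest level in any tumour. It also had the lowest Krt5 (9.56 CPM), Trp63 (16.5 CPM) and Notch3 (9.69 CPM) of the 21 tumours. Not all basal markers were low in stable 1. Its sum over the 18 basal and myoepithelial markers described below, 4269 CPM, was the highest of the stable tumours. Its endothelial sum, 133 CPM, was the lowest of the 21 tumours. Of 1592 stretches of 50 bases in Actg2 transcripts, 0 occurred in transcripts of another gene, and of 2146 in Acta2 transcripts 7 did, so that reads of 50 bases could be told apart between these actins nearly everywhere.

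**Figure D3:**
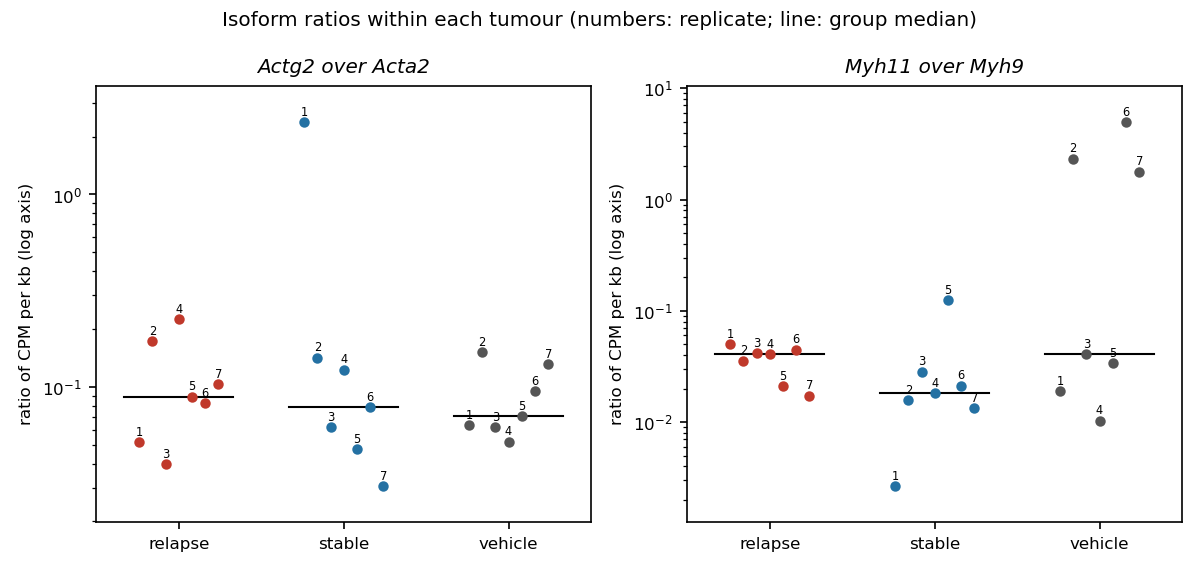
Ratios in CPM per kilobase (log axes) of Actg2 over Acta2 and of Myh11 over Myh9 in each tumour, with replicate numbers and group medians as lines. Stable 1 stands alone for the actins at 2.37, and vehicle 2, 6 and 7 for the myosins at 1.78 to 4.93.

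The filament and adhesion partners of smooth muscle, a list of 35 genes, moved in part with the members. In relapse against vehicle 1 rose and 6 fell, and in stable against vehicle 2 rose and 14 fell. Over all genes tested, 5.42% were called higher and 5.8% lower in relapse, and 6.9% and 8.16% in stable tumours. These shares also stand beside the list counts below. Pgm5, an aciculin-type adhesion protein, had 874, 1350 and 276 CPM in vehicle 2, 6 and 7 and at most 62.7 CPM elsewhere, and fell by 4.57 in relapse and 4.69 in stable tumours (edgeR adjusted p = 0.00821 and 0.00607). Vcl, which encodes the adhesion protein vinculin, fell by 0.84 in relapse and 0.88 in stable tumours (edgeR adjusted p = 0.0123 and 0.00914). The intermediate filament gene Synm had 912, 1092 and 427 CPM in vehicle 2, 6 and 7, 25.6 to 134 CPM in relapse tumours and 14.2 to 120 CPM in stable tumours. Synm fell in stable tumours (-3.25, edgeR adjusted p = 0.0194) and did not pass in relapse tumours (-2.26, edgeR adjusted p = 0.0863). The counts without vehicle 2, 6 and 7 were 1 higher and 0 lower in relapse, and 0 and 0 in stable tumours. The total of 7 calls in relapse became 3 without vehicle 2 or vehicle 6 alone, 4 without relapse 3, 13 without vehicle 1 and 11 without vehicle 4. The 16 calls in stable tumours became 7, 4 and 10 without vehicle 2, 6 and 7 in turn, and 10 without stable 3, 4 or 7.

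Desmin (Des), the intermediate filament protein of all muscle types, was the partner that rose in relapse tumours. It had 9.18 to 279 CPM in relapse tumours (median 121), 6.67 to 184 CPM in stable tumours (median 21.2) and 1.92 to 16.8 CPM in vehicle tumours (median 3.61). It was not raised in vehicle 2, 6 and 7 (3.61, 2.33 and 2.08 CPM), and rose by 4.58 in relapse and by 2.79 in stable tumours (edgeR adjusted p = 0.00359 and 0.0238). Skeletal muscle markers moved beside it: 12 of 13 rose in relapse (0 fell) and 8 of 13 in stable tumours (0 fell), with sums of 191 to 7542 CPM in relapse, 230 to 4336 CPM in stable and 221 to 566 CPM in vehicle tumours. Without vehicle 2, 6 and 7, 0 of these markers were called, but their median log2 fold change was 4.44 in relapse (5.05 with all tumours; 13 of 13 at an unadjusted p under 0.05 in both fits) and 2.5 in stable tumours (3.16 with all tumours). Des was called there in relapse (4.07, edgeR adjusted p = 0.0464). The 8 calls in stable tumours became 0 without stable 5 or vehicle 2, 3, 6 or 7 alone and ranged up to 10. Ckm, Myl1 and Tnnc2 were at 0 counts in vehicle 7. The part of skeletal muscle in the Des result was not tested.

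Among 27 tested genes of light chain phosphorylation and calcium handling, 0 rose and 6 fell in relapse and 0 rose and 9 fell in stable tumours; Pln did not pass the filter. Kcnmb1, the beta subunit of the calcium-activated potassium channel of smooth muscle, had 51.0, 41.2 and 24.2 CPM in vehicle 2, 6 and 7 and at most 1.56 CPM elsewhere. It fell by 4.31 in relapse and by 4.16 in stable tumours (edgeR adjusted p = 0.00719 and 0.00666). Ppp1r14a, an inhibitor of myosin phosphatase, had 29.5, 42.0 and 13.7 CPM there and at most 1.74 CPM elsewhere, and fell by 3.86 and 4.00 in relapse and stable tumours (edgeR adjusted p = 0.0122 and 0.00957). Gucy1a3, a subunit of the nitric oxide receptor guanylate cyclase, fell by 2.91 and 3.02 (edgeR adjusted p = 0.00912 and 0.00666). The calcium pump gene Atp2a2 fell in both (-1.23 and -1.46, edgeR adjusted p = 0.0111 and 0.00395). Without vehicle 2, 6 and 7, 28 of the genes were tested, 1 rose in relapse (Hspb6) and 1 fell in stable tumours (Atp2a2, -0.51, edgeR adjusted p = 0.0143). The 9 calls in stable tumours became 5 without vehicle 2, vehicle 6 or stable 4.

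Of 10 tested receptors that trigger contraction, 3 fell in relapse and 2 in stable tumours, and 0 rose. Not every receptor was high in vehicle 2, 6 and 7. Htr2b, a serotonin receptor, had 0.320, 0.233 and 3.41 CPM there and 4.39 to 21.4 CPM elsewhere. Oxtr, the oxytocin receptor through which myoepithelial cells are made to contract, had 12.7 to 26.8 CPM in relapse tumours (median 18.5), 2.69 to 68.9 CPM in stable tumours (median 18.1) and 13.0 to 707 CPM in vehicle tumours (median 35.8). Vehicle 2, 6 and 7 held 707, 495 and 203 CPM, and the next highest was stable 5, the tumour that was also highest of the treated for Myh11 and Mylk. Oxtr fell by 3.52 in relapse and by 3.21 in stable tumours (edgeR adjusted p = 0.0119 and 0.0159), and Ednrb, an endothelin receptor, by 1.56 and 1.55 (edgeR adjusted p = 0.0137 and 0.0131). Of 11 receptors tested without vehicle 2, 6 and 7, 0 were called, and the 2 calls in stable tumours became 4 without stable 5.

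The SRF and myocardin family regulators, 21 of which were tested, had a median log2 fold change of 0.04 in relapse and -0.20 in stable tumours against vehicle. In relapse 1 rose and 0 fell, and in stable tumours 1 rose and 3 fell. Over all genes 5.42% rose and 5.8% fell in relapse, and 6.9% and 8.16% in stable tumours, so a count of 1 in 21 is near those shares. Srf, which encodes serum response factor, had 13.2 to 26.3 CPM in relapse tumours, 14.4 to 27.8 CPM in stable tumours and 20.7 to 45.7 CPM in vehicle tumours. It fell in stable tumours (-0.68, edgeR adjusted p = 0.0338), and vehicle 7, at 21.9 CPM, was not raised. Foxo4, a FOXO factor reported to repress myocardin activity, rose in relapse and in stable tumours by 0.45 and 0.58 (edgeR adjusted p = 0.00680 and 0.000946). That gene ran from 28.9 to 39.4 CPM in relapse, from 32.5 to 47.7 CPM in stable and from 23.1 to 27.4 CPM in vehicle tumours, with no overlap, and kept its calls without vehicle 2, 6 and 7 (0.46 and 0.59, edgeR adjusted p = 0.0468 and 0.00986). Without those tumours the counts over 22 genes were 1 higher in relapse and 2 higher in stable tumours, with 0 lower. The relapse count was 2 to 4 without stable 1 or 5 or vehicle 1, 3, 4, 5 or 7 in turn. The 4 calls in stable tumours became 1 without vehicle 2 or 6, and 2 without stable 2, 3, 4, 6 or 7.

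**Figure D4:**
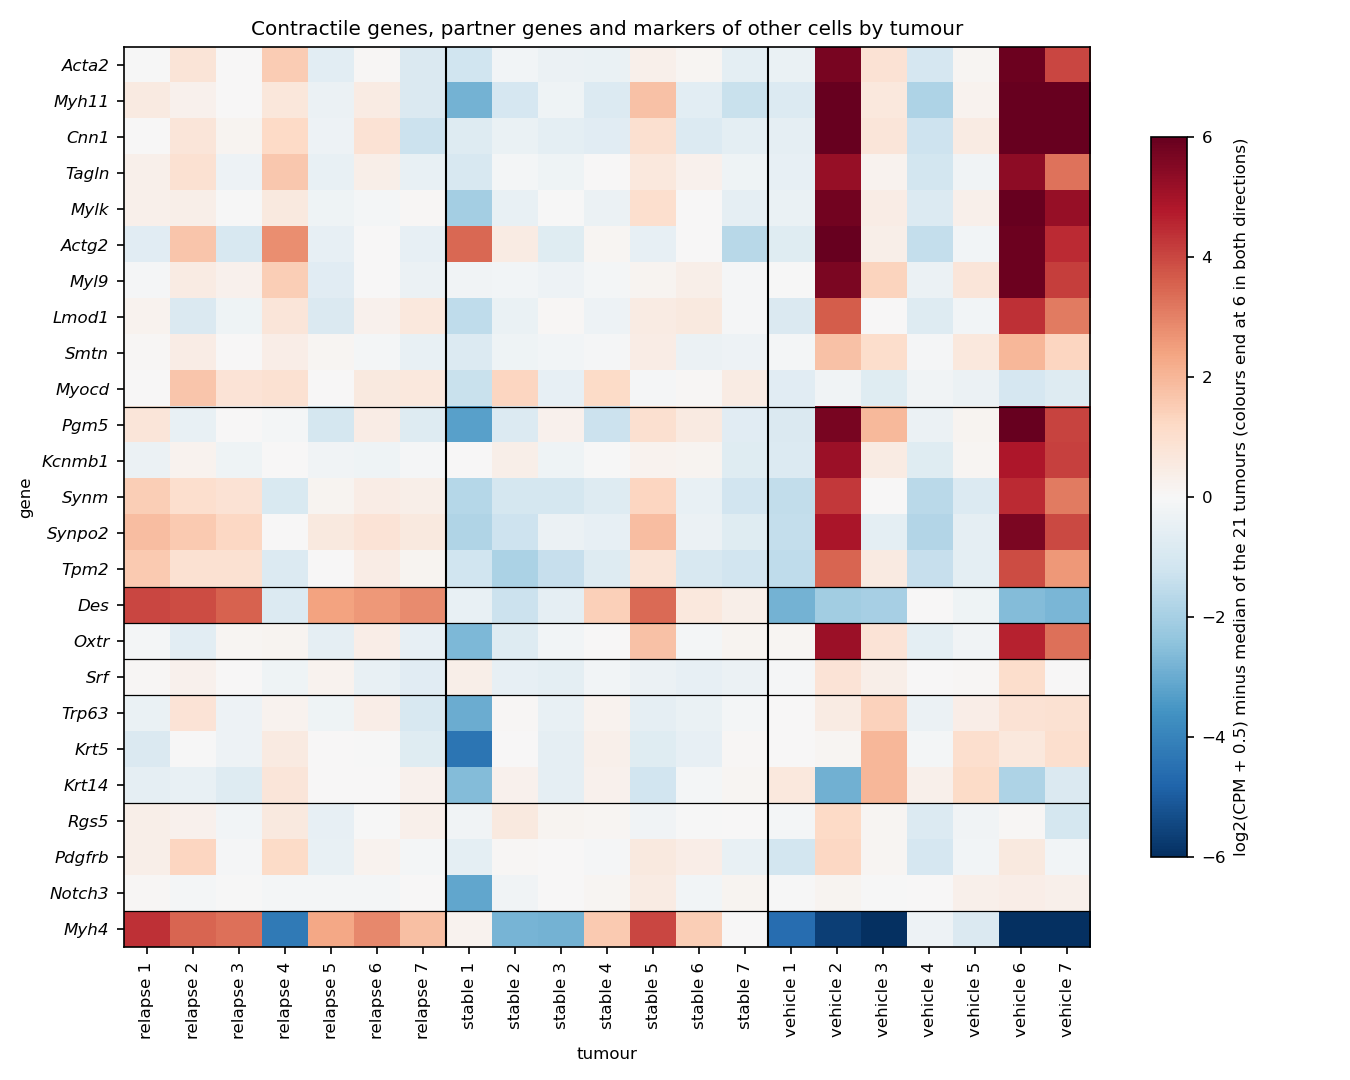
Log2(CPM + 0.5) minus the gene's median over the 21 tumours, for the 10 members (top block), filament partners, Kcnmb1, Des, Oxtr, Srf, basal, pericyte and skeletal muscle markers in each tumour. Columns run from relapse through stable to vehicle tumours. Red blocks mark vehicle 2, 6 and 7 for 9 members, Kcnmb1, Oxtr and the filament partners Pgm5, Synm, Synpo2 and Tpm2. They mark stable 5 and the relapse tumours other than relapse 4 for Des and Myh4. Of the 35 filament and adhesion partners only these and Des are shown, and Synm, Synpo2 and Tpm2 were picked after their values were seen. Those 3 were also raised in relapse 1, 2 and 3 and stable 5 (0.78 to 1.87).

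Basal and myoepithelial markers outside the contractile set were highest in vehicle 3 in sum, with vehicle 6 next. Of 18 such markers, edgeR called 0 in relapse (6 at an unadjusted p under 0.05; 4 called by the DESeq2 Wald test), and in stable tumours 0 rose and 2 fell, among them Snai2, a transcription factor of basal cells (-1.13, edgeR adjusted p = 0.0355). Over all genes 5.8% were called lower in relapse and 8.16% in stable tumours. The basal keratin Krt14 had 372 to 1030 CPM in relapse tumours, 104 to 759 CPM in stable tumours and 85.0 to 2507 CPM in vehicle tumours, and vehicle 2, 6 and 7 were the lowest of the vehicle group at 85.0, 172 and 342 CPM. Krt5 was at 230, 323 and 421 CPM in these 3 tumours and highest in vehicle 3, at 825 CPM. Trp63, the p63 factor of basal cells, was at 188, 240 and 251 CPM and also highest in vehicle 3, at 346 CPM, with vehicle 7 and 6 next. The list's sum was 3268 to 5195 CPM in relapse, 3427 to 4269 CPM in stable and 3270 to 8283 CPM in vehicle tumours. It was 4830, 6369 and 4985 CPM in vehicle 2, 6 and 7, above every stable tumour, while relapse 4 at 5195 CPM and vehicle 5 at 5094 CPM exceeded vehicle 2 and 7. Their part in the members' result was not tested. Without vehicle 2, 6 and 7, 1 of these markers rose in relapse and 1 fell in stable tumours. The relapse count ranged from 0 to 4 with tumours left out in turn, with 4 without stable 1 and 2 without relapse 7, and the stable count from 0 to 5, reaching 0 without stable 2, 3, 4 or 7 or vehicle 7 and 5 without vehicle 1.

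Other cells of a tumour that carry smooth muscle genes include pericytes, vascular smooth muscle and myofibroblasts. Over all genes 5.42% rose and 5.8% fell in relapse, and 6.9% and 8.16% in stable tumours, so a count of 1 in 12 or 15 is near those shares. Of 15 pericyte and vascular smooth muscle markers, 1 rose and 1 fell in relapse, and 1 rose and 3 fell in stable tumours. Ndufa4l2 fell by 1.60 and 1.98 in relapse and stable tumours (edgeR adjusted p = 0.0286 and 0.00968), and Ebf2 rose by 1.53 and 1.22 (edgeR adjusted p = 0.0130 and 0.0331). These counts were 0 and 1 in both comparisons without vehicle 2, 6 and 7. The 2 calls in relapse became 1 without relapse 1, 3 or 7 or vehicle 3 or 7, and the 4 calls in stable tumours became 2 without stable 6 or vehicle 6 or 7. Their sum was 317 to 639 CPM in relapse, 316 to 435 CPM in stable and 272 to 1050 CPM in vehicle tumours, with 1050, 610 and 436 CPM in vehicle 2, 6 and 7. Rgs5, a pericyte gene, was at 99.7, 44.5 and 20.4 CPM in those tumours and at 24.03 to 65.4 CPM in the other 18, so that it was highest in vehicle 2 and lowest in vehicle 7. None of the 15 was at 0 counts in them. Of 15 fibroblast and myofibroblast markers, 4 rose and 0 fell in relapse, and 3 rose and 1 fell in stable tumours (4 and 0, and 1 and 0, without vehicle 2, 6 and 7). Mfap5, a microfibril gene, rose by 1.94 and 1.83 in relapse and stable tumours (edgeR adjusted p = 0.00156 and 0.00118), and by 1.80 and 1.71 without vehicle 2, 6 and 7 (edgeR adjusted p = 0.0229 and 0.0176). Their sum was 2376 to 9440 CPM in relapse, 2397 to 10917 CPM in stable and 2152 to 11536 CPM in vehicle tumours, and vehicle 2, 6 and 7 held 11536, 8249 and 6131 CPM. Of 12 endothelial markers 0 were called in either comparison by edgeR (1 each at an unadjusted p under 0.05; 1 in relapse by the DESeq2 Wald test). Their sum was 219 to 393 CPM in relapse, 133 to 409 CPM in stable and 162 to 561 CPM in vehicle tumours, and vehicle 2, 6 and 7 held 561, 526 and 284 CPM, the first 2 being the highest of the 21. With those tumours left out, 1 endothelial marker rose in relapse (Robo4, an endothelial guidance receptor, 1.33, edgeR adjusted p = 0.0144; 8 of 12 at an unadjusted p under 0.05, median 0.67) and 0 were called in stable tumours (2 at an unadjusted p under 0.05, median 0.37). Of 12 luminal markers 3 fell in relapse (1 without vehicle 6 or 7 alone), and 1 rose and 1 fell in stable tumours; leaving out vehicle 2, 6 and 7, 0 were called in relapse by edgeR (1 at an unadjusted p under 0.05), and 1 rose and 0 fell in stable tumours. Among them Foxa1, a factor of hormone-sensing luminal cells, had 37.1, 87.9 and 140 CPM in vehicle 2, 6 and 7 and at most 18.2 CPM (stable 5) elsewhere. Not every luminal marker was high there. Elf5 had 114, 73.7 and 180 CPM in these tumours and 118 to 467 CPM in the other 18. The luminal sum was 2165 to 4274 CPM in relapse, 2671 to 5566 CPM in stable and 2607 to 6429 CPM in vehicle tumours. Vehicle 2, 6 and 7 held luminal sums of 3293, 4551 and 6429 CPM. Of 5 tested cardiac markers 2 rose in relapse and 0 in stable tumours, and 0 in both by edgeR with vehicle 2, 6 and 7 left out (4 and 1 at an unadjusted p under 0.05). The part of these cells in the members' result was not tested.

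The genes whose profile over the 21 tumours lay closest to the members' mean profile were found by the root mean square difference of centred log2 CPM among 13373 genes. Mrvi1, a substrate of cGMP-dependent kinase, was closest, at 0.49, and the next 9 were Daam2, Nptxr, Osr1, Prss23, Alx4, Fam169a, Gucy1a3, Gas1 and Carmn, at 0.54 to 0.62. Among the members, Tagln was at 0.25, Acta2 at 0.35 and Myocd at 2.28. Mrvi1 had 4.85 to 10.7 CPM in relapse, 0.826 to 12.7 CPM in stable and 2.70 to 153 CPM in vehicle tumours, with 131, 153 and 67.4 CPM in vehicle 2, 6 and 7. The profile is set largely by these 3 tumours.

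Within the 14 treated tumours alone the closest genes were others. There Bmp1, a procollagen-processing protease, had a Pearson correlation of 0.98 with the members' mean profile, followed by Fgf7, Slit3, Pdgfrb and Hspg2 at 0.93 to 0.94. Pdgfrb, the PDGF receptor of pericytes and fibroblasts, had 159 and 147 CPM in relapse 2 and 4, where Acta2 had 152 and 260 CPM, and 43.1 CPM in stable 1, where Acta2 had 38.8 CPM. Acta2 and Tagln, which are part of the profile, correlated with it at 0.97, and Myocd, Lmod1 and Actg2 at 0.58, 0.49 and 0.24. These values describe 14 tumours, among them pairs with a common title code, and carry no test.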

How the data were processed

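Per the labels' protocols, tumours were snap frozen, total RNA was extracted, and polyadenylated RNA was read as stranded single-end libraries with 50-base reads. The submitters' processing notes name STAR 2.5.2a, SAMtools 1.3.1, Picard 2.9.2, edgeR and build mm10. These sources do not give the program, annotation or strand rule of the counting, or the handling of reads matching several genes. The deposited file holds raw counts of the authors, 1 whole number per gene and tumour. Of its 24028 lines 10202 held an extra leading cell, so each was read from its last 25 cells. Groups and columns were matched by title.

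Counts were filtered with filterByExpr by group, scaled by TMM and tested in edgeR 4.0.16 (R 4.3.3, quasi-likelihood, all 21 tumours, no covariates, Benjamini-Hochberg adjustment). SE is the log2 fold change divided by the square root of F. No tumour was a repeat of another in its group (lowest chi-square over degrees of freedom within a group 18.6, stable 2 against stable 3). Pairs across groups were not checked for repeats. The members and gene lists were chosen with earlier results of these data known; genes outside the members are named for defining a list, for being among its 3 lowest p-values against vehicle, or as the 10 closest by likeness (mean log2 CPM at least 1, prior count 2). Synm, Synpo2, Tpm2, Ppp1r14a, Hspb6, Htr2b, Notch3, Elf5, Myl1, Myh4, Myh9 and Actb were named after their values were seen. The fit without vehicle 2, 6 and 7 and the CArG-like search were added after seeing the data. Alternatives used limma 3.58.1 and DESeq2 1.42.0. Scripts were tested on simulated data. Positions and promoters are RefSeq's on GRCm38.p6, the assembly behind mm10. Shared 50-base stretches were counted over GENCODE M21 transcripts.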

Additional observations from a re-analysis of the deposited data

Results flagged for a closer look

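Single tumours lay far from the rest of their group in 11 of 48 cases, which covered 16 genes in 3 groups of 7. There the gap to the nearest tumour over the group's range exceeded Dixon's 95% critical value. Chance passes that value in about 1 of 20 independent groups of normally distributed values. Here CPM were used without logarithm and the genes share tumours, so that rate cannot be set against the 11 cases. Stable 5 stood apart with 170.5 CPM of Myh11 (next tumour 42.18 CPM), 7.321 CPM of Cnn1 (2.582 CPM), 184.4 CPM of Des (45.72 CPM) and 68.91 CPM of Oxtr (22.58 CPM). Relapse 4 stood apart with 32.32 CPM of Actg2 (14.58 CPM) and 38.01 CPM of Myl9 (18.90 CPM). Stable 1 held 50.79 CPM of Actg2 (6.132 CPM). Relapse 2 held 3.967 CPM of Myocd (2.095 CPM). Outside the contractile genes, Rgs5 reached 65.35 CPM in stable 2 (47.71 CPM) and 99.67 CPM in vehicle 2 (45.71 CPM), and Krt5 reached 825.1 CPM in vehicle 3 (421.4 CPM). In the vehicle group none of the 10 members had a single tumour past Dixon's value. That rule sets 1 tumour against its nearest, so tumours that are high together, such as vehicle 2, 6 and 7, can escape it.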

How the results depend on the processing

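With DESeq2 size factors, upper quartile factors or no filter, none of the 30 member results (10 genes in 3 comparisons) changed its call or direction. The number of members called, 9 in relapse and 8 in stable against vehicle, became 0 and 1 with limma voom and quality weights, 0 and 1 with voom and the title code as a random effect, 1 and 2 with a replicate block, and 0 and 0 without vehicle 2, 6 and 7. With each tumour left out in turn the counts ranged from 6 to 10 in relapse (6 without vehicle 2 or vehicle 6), from 7 to 10 in stable, and from 0 to 0 in relapse against stable; no member's direction against vehicle changed. Same-numbered tumours did not deviate together (correlations from -0.26 to 0.36), so the block pairs numbers only. Directions turned for relapse against vehicle under quality weights for Tagln (0.09434) and Lmod1 (0.00471), and without vehicle 2, 6 and 7 for Acta2 (0.28), Myh11 (0.36), Cnn1 (0.37), Tagln (0.82), Mylk (0.20), Lmod1 (0.51) and Actg2 (1.43), the last called in neither fit. In stable against vehicle they turned without those tumours for Myh11 (0.05873), Tagln (0.32), Lmod1 (0.39) and Actg2 (1.71). The DESeq2 Wald test added Actg2 in both comparisons (adjusted p = 0.00672 and 0.0121) and Myocd in stable tumours (0.0282). A fit of only the 2 groups lost Tagln (edgeR adjusted p = 0.0565) and Lmod1 (0.0566) in relapse and Lmod1 (0.0615) in stable tumours. Genes called among all tested, 1772 in relapse and 2378 in stable, became 955 and 592 with counts summed per title code, 987 and 1251 with the block, 976 and 1033 at an absolute log2 fold change of at least 1, and 527 and 847 without vehicle 2, 6 and 7. They ranged from 1156 to 2671 and from 1470 to 3272 with tumours left out. The cause was not tested. Depth limits Myocd, at 1 to 89 counts a tumour.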
